A study of Homo sapiens with 21 samples.

Results

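The cells described here are NLF cells carrying a control guide, grown with trametinib or with its solvent. NLF is an established human neuroblastoma cell line, and trametinib inhibits the kinases MEK1 and MEK2. The members were chosen by their labels alone: the 3 libraries of the control-guide line with 20 nM trametinib and its 3 libraries with DMSO, 6 of the 21 libraries in the series. The control-guide line, called sgCON, was made by transducing NLF with a CRISPR-Cas9 lentivirus carrying a scrambled guide, so Cas9 and a guide are present in both groups and YAP1 was not targeted. Cells received the drug or the solvent 24 h after they were plated and were collected 72 h later. The labels do not agree on the solvent, given as 0.01% DMSO with each sample and as 0.1% in the description of the series. The other libraries are the parental line, with DMSO only, and the YAP1 knockout lines YAPKO1 and YAPKO2, with DMSO or trametinib. All of them entered the fit. Beyond the fit, the knockout lines are used here only where the response of sgCON is set against theirs. The parental line is used only for a mean of MYCN. The guide that defines the control line, 20 bases long, is printed from 5′ to 3′ in lower case.
scrambled guide: gcactcacatcgctacatca

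In the RAS pathway, receptor tyrosine kinases activate RAS, RAS activates the RAF kinases, RAF phosphorylates MEK, and MEK phosphorylates ERK. Active ERK phosphorylates transcription factors of the ETS and AP-1 families and relieves repression by CIC, a repressor that sits at genes such as ETV4, ETV5 and DUSP6. Many genes that ERK induces encode its own inhibitors, among them the phosphatases of the DUSP family and the SPRY adaptor proteins. Neuroblastoma arises from the sympathetic lineage of the neural crest, and its adrenergic cells carry the transcription factors HAND2 and GATA3 and can store peptides and catecholamines in secretory granules.

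The values are FPKM (fragments per length of transcript and per total of mapped fragments) scaled between libraries, so they are levels per length. A log2 change is the difference between groups on the scale of log2(FPKM + 0.5), given ± its standard error, which understates the change of genes near or under 0.5. A gene is said to have risen or fallen where limma's moderated test over 16194 genes gave a Benjamini-Hochberg adjusted p under 0.05. The labels number the replicates without stating that they were grown apart. The tests therefore weigh each change only against how these libraries vary, and that variation may be technical.

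Markers of the line's lineage were present in all 6 libraries. PHOX2A stood at 70.004 to 98.01, HAND2 at 65.5 to 77.7 and the neuronal RNA-binding protein gene ELAVL4 at 30.03 to 35.1. Other markers of many neuroblastomas were at or near 0: TH, the first enzyme of catecholamine synthesis, was listed at 0 in all 6 libraries, and the enzyme DBH and the granin CHGA stood at 0 to 0.0498 and 0 to 0.0979 in DMSO. The leukocyte gene PTPRC and the endothelial gene CDH5 were at or near 0 (0 to 0.0299 and 0), and CDH1 of epithelium and FAP of fibroblasts were listed at 0. The summed level of the 5 tested Schwann cell markers lay between 6.73 and 9.23 in DMSO and between 8.22 and 9.45 with trametinib, that of the 9 fibroblast markers between 462 and 541 in DMSO and between 485 and 611 with trametinib and that of the 4 epithelial markers between 18.1 and 19.97 in DMSO and between 16.1 and 18.6 with trametinib. Most of the fibroblast sum was the matrix proteoglycan gene LUM (281 to 402). Of 11 tested neuroblastoma markers, 2 rose and 1 fell, all named further on. CD68, a macrophage marker and the one blood marker high enough to be tested, fell from 2.01, 2.03 and 2.43 to 0.573, 0.167 and 0.912.

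Of the 16194 genes, 837 (5.17%) changed with trametinib in sgCON, 372 up (2.30%) and 465 down (2.87%). These shares are the background for the list counts below, and no list was tested against them. The falls reached further: 33 genes fell and 4 rose by at least 4-fold, and 168 fell and 96 rose by at least 2-fold. All 837 had 3 trametinib values that did not overlap the 3 DMSO values, a property that 36.6% of the tested genes had. Of the 12192 protein-coding genes tested, 705 (5.78%) changed. With the table that the authors calibrated, 55.0% of the called genes were higher, in place of 44.4%. The count was 2383 when the spread was estimated from the 6 libraries alone and between 480 and 548 without any 1 of them, lowest without trametinib replicate 1. All of these counts came from limma.

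Properties of the libraries moved with the drug. In the 6 libraries 13935 to 14223 genes reached an FPKM of 1. The GC trend of a library, the median deviation of GC-rich protein-coding genes (56.6% GC or more) minus that of GC-poor ones (41.7% or less), lay between -0.48 and -0.38 in DMSO and between -0.28 and -0.15 with trametinib on the log2 scale. The mitochondrially encoded protein genes took 0.402% to 0.482% of the FPKM in DMSO and 0.558% to 0.662% with trametinib. The log2 change had a Spearman rho of 0.250 with transcript GC content across 15615 genes, which are not replicates. After a correction for GC content in each library 1512 of those 15615 genes were called, 749 of them among the 837. Genes without a GC value were not in that fit and could not be called. The part of the mitochondrial share in the results was not tested.

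**Figure D1:**
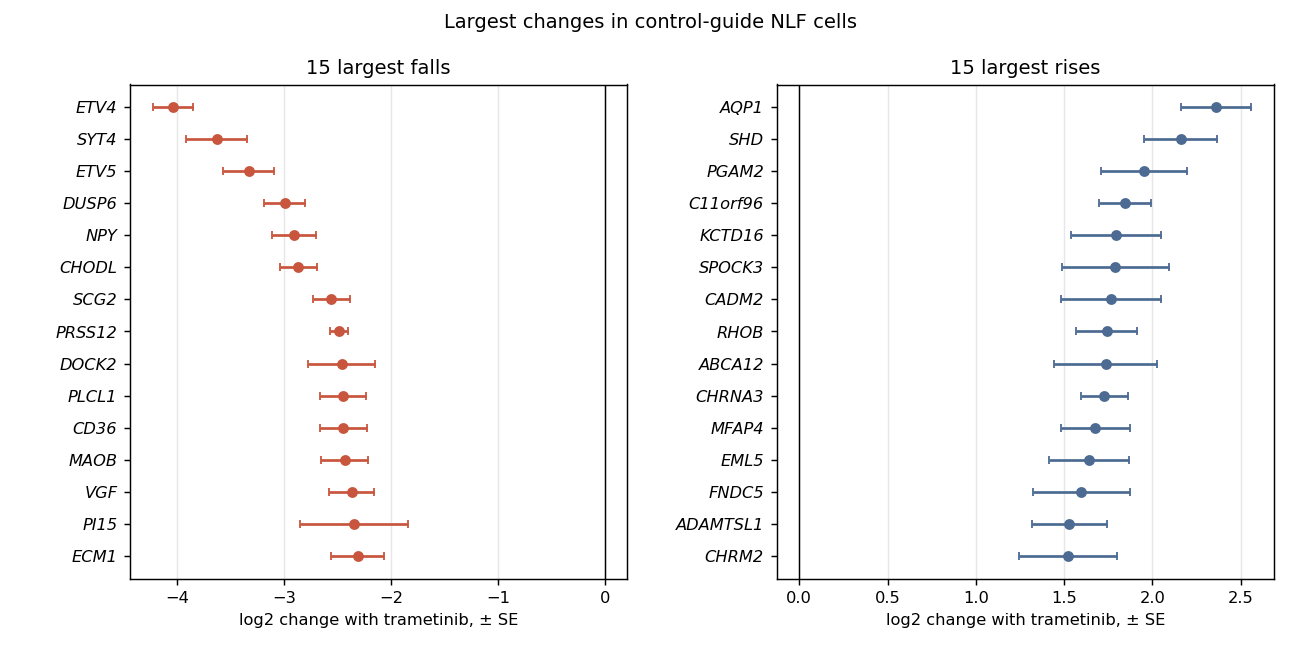
The 15 largest falls (left) and the 15 largest rises (right) among called protein-coding genes with a symbol in sgCON. The horizontal axis gives the log2 change with trametinib, with bars of 1 SE. The falls run from -2.31 for ECM1 to -4.04 for ETV4 and the rises from 1.52 for CHRM2 to 2.36 for AQP1.

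Genes induced by ERK led the falls. ETV4, an ETS transcription factor that ERK induces, stood at 40.9, 38.7 and 33.6 in DMSO and 1.55, 1.73 and 2.21 with trametinib. Its relative ETV5 stood at 20.6, 19.4 and 22.4 in DMSO and 0.917, 2.07 and 2.08 with trametinib. DUSP6, the phosphatase that removes phosphate from ERK itself, stood at 27.1, 23.4 and 22.6 in DMSO and 2.67, 3.57 and 1.84 with trametinib. No trametinib library reached a DMSO library for any of the 3 genes, and the log2 changes were -4.04 ± 0.19, -3.33 ± 0.24 and -2.99 ± 0.19. ETV1, the third factor of that ETS subfamily, was too low to be tested (0.137 to 0.488 in DMSO and 0.0480 to 0.239 with trametinib).

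Of the ERK feedback inhibitors, 1 of 11 tested members rose and 6 fell, with a median log2 change of -0.80 against -0.000119 over all genes. The adaptor SPRY2 stood at 30.4, 29.999 and 31.6 in DMSO and 7.51, 7.32 and 8.17 with trametinib. SPRY4 was lower to begin with, at 2.19, 1.72 and 2.36 in DMSO and 0.382, 0.0196 and 0.115 with trametinib. Their log2 changes were -1.93 ± 0.11 and -1.97 ± 0.23. SPRY1 (log2 change -0.80 ± 0.14) and the nuclear phosphatase genes DUSP4 (-0.77 ± 0.12) and DUSP5 (-0.87 ± 0.21) fell too. DUSP2, a nuclear phosphatase of the same family, was the exception and rose, with values of 1.15, 1.23 and 0.637 in DMSO and 3.04, 1.94 and 2.97 with trametinib (1.07 ± 0.19, adjusted p = 0.00251). The call of DUSP5 was lost without DMSO replicate 1 or 3 or trametinib replicate 2 or 3 (highest adjusted p = 0.0828). The summed level of the 11 inhibitors lay between 104 and 106 in DMSO and between 41.5 and 45.9 with trametinib.

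Among the transcription factors that ERK induces, 0 of 9 tested members rose and 4 fell, with a median of -0.51. Beside ETV4 and ETV5 these were MAFF, a small MAF protein, with values of 6.63, 6.33 and 6.27 in DMSO and 1.75, 2.08 and 2.06 with trametinib (-1.49 ± 0.20), and the ETS factor ELK3, at 14.6, 14.5 and 12.8 in DMSO and 6.88, 8.07 and 6.82 with trametinib (-0.90 ± 0.24). The call of ELK3 was lost without any 1 of the 6 libraries (highest adjusted p = 0.112). Of the immediate early genes, 1 of 14 tested members rose and 2 fell, with a median of -0.06. IER3, which protects cells under stress, fell from 3.14, 3.06 and 2.61 to 0.774, 0.549 and 0.768 (-1.52 ± 0.23), and the AP-1 subunit FOSL1 fell (-0.70 ± 0.17). JUN, another AP-1 subunit, rose from 3.81, 3.62 and 4.02 to 8.26, 9.04 and 7.83 (1.04 ± 0.15, adjusted p = 0.000277). Both directions thus occurred within AP-1. EGR1, a zinc finger factor that ERK induces within minutes, was below the level tested, at 0.450, 0.412 and 0.498 in DMSO and 0.124, 0.127 and 0.0288 with trametinib. The call of FOSL1 was lost without DMSO replicate 1 or trametinib replicate 1 or 2 (highest adjusted p = 0.0899).

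In a published list of 10 genes used to score MAPK pathway activity, 0 of 9 tested members rose and 7 fell, with a median of -1.93. It shares DUSP4, DUSP6, SPRY2, SPRY4, ETV4 and ETV5 with the lists above, so it is not a separate body of evidence. PHLDA1 fell (-0.84 ± 0.16). CCND1, which encodes cyclin D1 and is a textbook ERK target, stood at 85.3, 80.3 and 85.2 in DMSO and 104, 94.3 and 96.6 with trametinib. All 3 trametinib values lay above the 3 DMSO values, but the difference missed the threshold (0.23 ± 0.10, adjusted p = 0.222). With the spread from the 6 libraries alone, a limma fit that called 2383 genes, CCND1 passed it (adjusted p = 0.0320). With the GC correction CCND1 did not (adjusted p = 0.192).

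**Figure D2:**
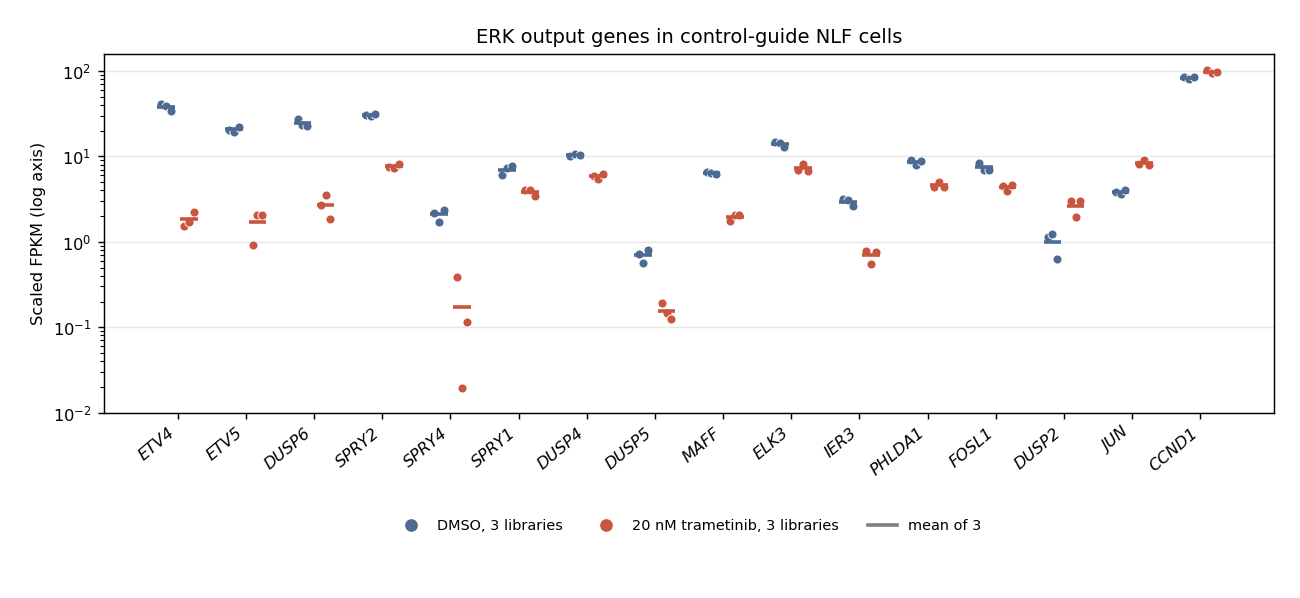
Scaled FPKM (log axis) of ERK output genes in the 3 DMSO and 3 trametinib libraries of sgCON, with a line at the mean of each group. The first 13 genes lie lower with trametinib in all 3 libraries, led by ETV4, ETV5 and DUSP6, while DUSP2 and JUN lie higher.

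The start regions of 4 of the fallen genes are shown because CIC and ETS factors act at such regions. They are RefSeq promoters on GRCh38.p14, from 120 bases before the start of transcription to 30 bases from the start on, on the gene's strand, and capitals mark the motifs searched. These were the CIC octamer (TGAATGAA, TGAATGGA, TCAATGAA or TCAATGGA), the ETS site CCGGAAGT, the AP-1 site TGANTCA and the CRE TGACGTCA, each on both strands, and none of them contains another. DUSP6 lies at chr12:89352472-89352621 on the minus strand, MAFF at chr22:38201874-38202023 on the plus strand, SPRY2 at chr13:80341097-80341246 and SPRY4 at chr5:142324218-142324367, both on the minus strand.
DUSP6: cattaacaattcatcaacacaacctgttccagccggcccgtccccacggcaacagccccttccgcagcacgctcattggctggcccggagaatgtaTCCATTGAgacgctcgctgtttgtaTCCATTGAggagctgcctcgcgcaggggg
MAFF: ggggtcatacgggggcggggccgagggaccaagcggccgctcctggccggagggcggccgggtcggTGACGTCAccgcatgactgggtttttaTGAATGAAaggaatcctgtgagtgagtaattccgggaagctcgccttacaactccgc
SPRY2: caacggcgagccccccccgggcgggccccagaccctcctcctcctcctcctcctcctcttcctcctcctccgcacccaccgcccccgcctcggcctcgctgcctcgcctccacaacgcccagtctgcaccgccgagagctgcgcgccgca
SPRY4: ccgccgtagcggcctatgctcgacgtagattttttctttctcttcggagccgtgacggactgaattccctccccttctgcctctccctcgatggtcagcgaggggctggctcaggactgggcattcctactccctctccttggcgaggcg
The DUSP6 region holds the CIC octamer in 2 copies on the opposite strand, the first starting 24 bases before the start of transcription and the second at its position 2. The MAFF region holds 1 CIC octamer 27 bases before the start and 1 CRE 54 bases before it. The SPRY2 and SPRY4 regions hold none of these letters in the whole window of 300 bases searched, which says nothing of binding elsewhere. Of the 27305 RefSeq windows of 300 bases, 3.86% hold a CIC octamer, 4.44% the ETS site, 7.76% the AP-1 site and 1.98% the CRE. Among the 335 fallen genes with a window the CIC octamer was in 3.88%, among the 265 risen genes in 3.02% and among the 10649 windows of tested genes in 2.52%. The ETS site was in 2.39% of the fallen, 5.66% of the risen and 9.03% of the tested genes, and the AP-1 site in 7.76%, 3.40% and 4.31%. These are matches of letters, given as a description.

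No gene of the cascade from RAS to ERK passed the test in the main fit, which used all 21 libraries and no GC correction. Of its genes, 0 of 25 tested members rose and 0 fell by limma. An unadjusted p under 0.05 was found for 4 of them and for 2846 of all 16194 genes. With the spread taken from the 6 libraries alone, where 1016 of all genes rose and 1367 fell, 1 member rose and 4 fell. With the GC correction, where 710 of 15615 genes rose and 802 fell, 0 members rose and 4 fell. The largest differences were in the ERK-activated kinase gene RPS6KA3 (42.8, 40.2 and 37.9 in DMSO and 20.2, 23.5 and 19.5 with trametinib, log2 difference -0.92 ± 0.31, adjusted p = 0.109) and the small GTPase gene RRAS (-0.61 ± 0.20, adjusted p = 0.0863). Among receptor tyrosine kinases, 1 of 25 tested members rose and 2 fell in the main fit, and 2 rose and 6 fell with the GC correction. RET, the receptor for the GDNF family that sympathetic neurons need, stood at 22.02, 16.2 and 16.5 in DMSO and 3.79, 2.98 and 4.17 with trametinib. That was a log2 change of -2.17 ± 0.15, and the groups did not overlap. The VEGF receptor gene FLT1 fell from a low level (-0.91 ± 0.20), and FGFR2, a fibroblast growth factor receptor, rose from 2.53, 2.98 and 3.18 to 4.32, 5.61 and 4.74 (0.67 ± 0.14). The call of FLT1 was lost without DMSO replicate 2 (adjusted p = 0.0534) and that of FGFR2 without DMSO replicate 1 or trametinib replicate 2 (highest adjusted p = 0.0642). IRS2, an adaptor of the insulin and insulin-like growth factor receptors, fell from 6.54, 6.40 and 5.83 to 2.65, 2.99 and 2.97 (-1.005 ± 0.13) and was the one member of 12 tested in that axis to change.

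Of granins, neuropeptides and their processing genes, 3 of 11 tested members rose and 5 fell. SYT4, a synaptotagmin of secretory vesicles, is not in that list and is counted with the synaptic vesicle genes below. It stood at 16.2, 15.04 and 13.6 in DMSO and 0.678, 0.774 and 0.777 with trametinib. NPY, the peptide that sympathetic neurons release with noradrenaline, stood at 40.6, 35.5 and 35.6 in DMSO and 3.77, 4.03 and 6.02 with trametinib. The granin SCG2 stood at 134, 143 and 135 in DMSO and 22.6, 25.1 and 21.04 with trametinib. None of the trametinib values came near the DMSO values. The log2 changes were -3.63 ± 0.28, -2.91 ± 0.20 and -2.56 ± 0.17. VGF, the precursor of several secreted peptides, fell from 5.89, 4.20 and 5.39 to 0.917, 0.343 and 0.576, and neurotensin (NTS) from 5.42, 5.63 and 4.98 to 1.15, 1.74 and 1.47. PAM, the enzyme that amidates peptide hormones, fell from 142, 143 and 148 to 55.6, 60.2 and 66.1 (-1.25 ± 0.09). The median of the granin and neuropeptide list, 0.18, has the opposite sign to the change of its summed level. In it 6 members had a positive change, all but the processing enzyme CPE with a mean under 1 FPKM in DMSO. The summed level lay between 381 and 386 in DMSO and between 150.2 and 160.3 with trametinib. The members that rose were the granin CHGA (0.0979, 0 and 0.0498 in DMSO and 0.774, 0.667 and 0.221 with trametinib), the granin-like PCSK1N (1.09 ± 0.29) and adrenomedullin (ADM, 0.94 ± 0.25). Their calls were lost without DMSO replicate 1, 2 or 3 or trametinib replicate 1 or 2 (highest adjusted p = 0.201), without DMSO replicate 1, 2 or 3 or trametinib replicate 1 or 2 (highest adjusted p = 0.178) and without any 1 of the 6 libraries (highest adjusted p = 0.156).

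Catecholamine genes moved in both directions. Of these, 1 of 12 tested members rose and 2 fell. The noradrenaline transporter SLC6A2 rose from 13.6, 11.3 and 11.5 to 38.8, 34.2 and 28.6 (1.44 ± 0.16). MAOB, a monoamine oxidase, fell from 21.3, 21.5 and 22.6 to 3.23, 3.12 and 4.69 (-2.43 ± 0.22), and GCH1, which makes the cofactor of tyrosine hydroxylase, fell from 8.60, 9.55 and 9.57 to 3.59, 3.36 and 3.25 (-1.32 ± 0.19). DBH, the enzyme that makes noradrenaline, was 0.592, 0.167 and 0.345 with trametinib against 0.0294, 0 and 0.0498 in DMSO, and the difference missed the threshold (0.69 ± 0.23, adjusted p = 0.102).

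Several adrenergic transcription factors rose. Of this list, 6 of 16 tested members rose and 0 fell in the main fit, with a median of 0.28, against 2.30% and 2.87% of all tested genes. With the GC correction, where 710 of 15615 genes rose and 802 fell, 7 members rose and 1 fell. With the spread from the 6 libraries alone, where 1016 of all genes rose and 1367 fell, 8 rose and 2 fell. GATA2, a zinc finger factor of the lineage, rose from 8.89, 6.92 and 7.50 to 18.8, 16.5 and 17.4 (1.13 ± 0.14), and INSM2, a zinc finger factor of neuroendocrine cells, from 50.1, 49.97 and 45.9 to 90.1, 86.1 and 88.2 (0.85 ± 0.11). For both the groups were well apart. HAND1 rose from a low level (1.15, 1.01 and 1.48 in DMSO and 3.35, 2.94 and 2.51 with trametinib). GATA3 (0.46 ± 0.10) and SATB1 (0.57 ± 0.14) rose too, and their calls were lost without DMSO replicate 2 or trametinib replicate 1 or 3 (highest adjusted p = 0.0756) and without DMSO replicate 1 or 3 or trametinib replicate 2 or 3 (highest adjusted p = 0.126). Of the genes of the mesenchymal neuroblastoma state, 2 of 17 tested members rose and 1 fell: SNAI1, a repressor of epithelial genes, rose (1.005 ± 0.15), FN1 rose (0.40 ± 0.09), and FOSL1 fell. The call of FN1 was lost without DMSO replicate 1 or 2 or trametinib replicate 1 or 2 (highest adjusted p = 0.0792).

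Genes of neurites and receptors rose in part. Of neurite and growth cone genes, 5 of 25 tested members rose and 1 fell, with a median of 0.14. GAP43, a protein of growth cones, rose from 55.6, 51.9 and 59.3 to 135, 134 and 153 (1.34 ± 0.12). The intermediate filament gene PRPH of peripheral neurons rose from 17.5, 16.99 and 17.3 to 29.3, 29.97 and 29.3 (0.76 ± 0.17), and alpha-internexin (INA) from 0.715, 0.915 and 0.966 to 2.14, 1.99 and 1.85. STMN3 (0.59 ± 0.16), a stathmin that binds tubulin, and MAP6 (0.59 ± 0.16), which stabilises microtubules, rose as well, and BASP1, a membrane protein of growth cones, fell (-0.44 ± 0.08). The calls of STMN3, MAP6 and PRPH were lost without any 1 of the 6 libraries (highest adjusted p = 0.154), without any 1 of the 6 libraries (highest adjusted p = 0.137) and without DMSO replicate 2 or trametinib replicate 2 (highest adjusted p = 0.0520). Among nicotinic receptor subunits, 2 of 6 tested members rose and 0 fell. CHRNA3, the main alpha subunit of autonomic ganglia, rose from 16.9, 12.2 and 14.7 to 56.6, 46.1 and 45.4 (1.73 ± 0.13), and CHRNB4, its beta partner, from 3.46, 4.23 and 3.04 to 6.99, 5.04 and 6.11 (0.68 ± 0.15). The call of CHRNB4 was lost without DMSO replicate 1 or 3 or trametinib replicate 1 (highest adjusted p = 0.0784).

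Of synaptic vesicle genes, 1 of 23 tested members rose and 1 fell, against 2.30% and 2.87% of all tested genes. SYT4 fell, as above, and synaptophysin (SYP) rose from 0.323, 0.312 and 0.438 to 1.91, 1.75 and 1.31 (1.33 ± 0.24). Among potassium, sodium and calcium channels, 0 of 21 tested members rose and 1 fell, and the fall was CACNA1G of the T-type calcium channels (-1.03 ± 0.23), a call lost without DMSO replicate 1 or 3 or trametinib replicate 1 (highest adjusted p = 0.0586). Of axon guidance genes, 3 of 43 tested members rose and 3 fell. SLIT3, a secreted repellent, rose from 23.3, 20.3 and 21.1 to 40.4, 39.1 and 35.6 (0.82 ± 0.13), and SEMA3C, a semaphorin, fell from 3.41, 2.05 and 1.95 to 0.717, 0.667 and 0.979 (-1.18 ± 0.20). The netrin receptor genes went opposite ways, with UNC5B at 0.57 ± 0.14 and UNC5C at -0.47 ± 0.08. EPHA5 rose (0.94 ± 0.24) and PLXNA2 fell (-0.66 ± 0.18), and both calls were lost without any 1 of the 6 libraries (highest adjusted p = 0.131 and 0.171). The call of UNC5B was lost without DMSO replicate 1, 2 or 3 or trametinib replicate 1 or 3 (highest adjusted p = 0.0973).

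**Figure D3:**
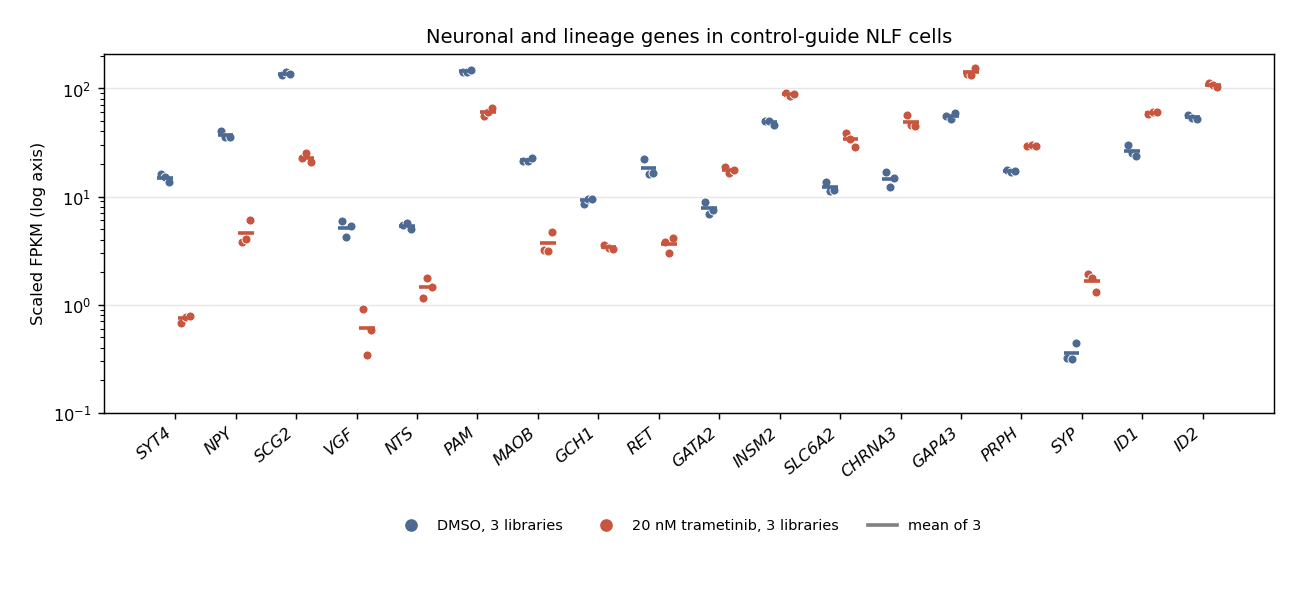
Scaled FPKM (log axis) of neuronal and lineage genes in the 3 DMSO and 3 trametinib libraries of sgCON, with a line at the mean of each group. SYT4 to RET lie lower with trametinib in all 3 libraries, and GATA2 to ID2 lie higher.

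Inhibitors of DNA-binding and Notch genes moved as well. ID1, a helix-loop-helix protein that BMP signalling induces and that blocks proneural factors, rose from 29.99, 25.3 and 23.8 to 57.5, 60.5 and 61.1 (1.17 ± 0.15). ID2 rose from 56.3, 53.1 and 52.7 to 111, 108 and 104 (0.99 ± 0.11) and ID3 from 50.7, 58.01 and 49.3 to 87.6, 78.4 and 97.9 (0.73 ± 0.19). The groups did not overlap for any of the 3. Of BMP signalling and ID genes, 6 of 19 tested members rose and 1 fell. SMAD6 (0.63 ± 0.13) and SMAD7 (0.57 ± 0.12), inhibitory SMADs that BMP and TGF-beta signalling induce, and the receptor gene BMPR1B (0.65 ± 0.17) rose, and the pseudoreceptor gene BAMBI fell (-0.91 ± 0.14). The calls of ID3, SMAD7 and BMPR1B were lost without DMSO replicate 1, 2 or 3 or trametinib replicate 1 or 3 (highest adjusted p = 0.120), without trametinib replicate 1 (adjusted p = 0.0564) and without DMSO replicate 1 or 2 or trametinib replicate 1, 2 or 3 (highest adjusted p = 0.138). Of the Notch pathway and neurogenic bHLH genes, 6 of 21 tested members rose and 1 fell. The rises included the repressor HES6 (54.98, 51.6 and 50.1 to 85.9, 74.8 and 77.1), NEUROD1 from a low level (0.304, 0.452 and 0.239 in DMSO and 1.34, 2.01 and 0.979 with trametinib), the coactivators MAML1 (0.60 ± 0.13) and MAML3 (0.59 ± 0.14), and the ligand DLL3 (0.69 ± 0.17). HEY1, a repressor that Notch induces, fell (-0.78 ± 0.13). The calls of HES6, NEUROD1, MAML3 and DLL3 were lost without trametinib replicate 1 (adjusted p = 0.0583), without trametinib replicate 2 (adjusted p = 0.0566), without DMSO replicate 1 or 2 or trametinib replicate 1 or 3 (highest adjusted p = 0.0780) and without any 1 of the 6 libraries (highest adjusted p = 0.0862).

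Of matrix and adhesion genes, 3 of 44 tested members rose and 7 fell, with a median of -0.17. POSTN, a matrix protein that binds integrins, stood at 19.97, 21.3 and 18.8 in DMSO and 3.13, 5.38 and 5.65 with trametinib. TGFBI, another integrin ligand, went from 1.45, 1.79 and 1.42 to 0, 0.118 and 0.202. Their log2 changes were -2.01 ± 0.34 and -1.77 ± 0.26. The integrin genes ITGB8 (40.6, 37.2 and 38.96 to 14.7, 15.4 and 13.1), ITGA5 (-1.34 ± 0.19) and ITGA2 (-1.15 ± 0.21) fell, as did COL6A2 (-0.76 ± 0.15) and fibrillin FBN1 (-0.72 ± 0.17). The rises were decorin (DCN), a proteoglycan that coats collagen, from 11.95, 15.7 and 13.9 to 31.4, 30.5 and 30.001 (1.13 ± 0.16), collagen COL3A1 (0.36 ± 0.08) and FN1. The calls of FBN1 and COL3A1 were lost without DMSO replicate 1 or 3 or trametinib replicate 1, 2 or 3 (highest adjusted p = 0.0784) and without DMSO replicate 1 or 2 or trametinib replicate 3 (highest adjusted p = 0.0780). DCN and COL3A1 are also the 2 of 9 tested fibroblast markers that rose, while none fell, and FAP was listed at 0. Whether fewer cells of a type or less RNA per cell lies behind any change cannot be told apart in these bulk samples.

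Of annexins and S100 proteins, 0 of 14 tested members rose and 4 fell, with a median of -0.46. Annexin A1 (ANXA1), a phospholipid-binding protein, stood at 44.2, 42.99 and 40.2 in DMSO and 7.24, 8.38 and 12.6 with trametinib (-2.15 ± 0.29). The calcium-binding S100A16 fell from 44.9, 45.6 and 46.1 to 19.4, 14.4 and 17.4, and S100A11 (-0.79 ± 0.17) and S100A4 (-0.61 ± 0.13) fell too. The call of S100A11 was lost without trametinib replicate 1 (adjusted p = 0.0577). The summed level of the 14 genes lay between 624 and 629 in DMSO and between 413 and 449 with trametinib.

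MYCN fell. The gene encodes the transcription factor amplified in many neuroblastomas and stood at 98.6, 97.8 and 92.2 in DMSO and 55.1, 49.9 and 51.2 with trametinib (-0.88 ± 0.12, adjusted p = 0.000214). Of MYC, MYCN and ribosome biogenesis targets, 0 of 42 tested members rose and 2 fell, MYCN itself and MXI1, an antagonist of MYC (-0.54 ± 0.12), a call lost without DMSO replicate 2 or trametinib replicate 2 (highest adjusted p = 0.0604). With the spread from the 6 libraries alone 1 rose and 11 fell, against 1016 and 1367 of all 16194 genes. The median of that list was -0.07, and MYC was near 0 (0 to 0.0996). For cytosolic ribosomal protein genes, 0 of 75 tested members rose and 0 fell by limma, with a median of 0.13. Of them 5 had an unadjusted p under 0.05, as had 2846 of all 16194 genes. With the spread taken from the 6 libraries alone 19 rose, as did 1016 of all genes.

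Among glycolysis and hypoxia genes, 2 of 32 tested members rose and 5 fell. VEGFA, the angiogenic growth factor, fell from 11.3, 8.73 and 13.9 to 5.47, 4.77 and 2.96 (-1.29 ± 0.18). The glycolytic enzymes PFKP (phosphofructokinase, -0.84 ± 0.19), HK1 (-0.58 ± 0.16) and HK2 (-0.42 ± 0.08, both hexokinases) fell, and so did the mitophagy receptor BNIP3 (51.3, 57.8 and 50.1 to 32.8, 35.3 and 36.4). The muscle phosphoglycerate mutase PGAM2 rose from 1.77, 2.49 and 1.39 to 9.49, 8.80 and 7.54 (1.95 ± 0.25), and the other rise was ADM. The calls of PFKP and HK1 were lost without DMSO replicate 1 or trametinib replicate 2 (highest adjusted p = 0.0697) and without any 1 of the 6 libraries (highest adjusted p = 0.158). Of ATF4 and unfolded protein response genes, 0 of 31 tested members rose and 5 fell: ASNS (-0.48 ± 0.11) and GARS (-0.35 ± 0.08), which serve amino acid supply and tRNA charging, MTHFD2 (-0.28 ± 0.08), PDIA6 (-0.29 ± 0.08) and ATF4 itself (-0.27 ± 0.07). The calls of ATF4, MTHFD2 and PDIA6 were lost without any 1 of the 6 libraries (highest adjusted p = 0.169, 0.181 and 0.111), those of ATF4 and MTHFD2 also with the GC correction, that of ASNS without DMSO replicate 2 or trametinib replicate 1, 2 or 3 (highest adjusted p = 0.0980) and that of GARS without DMSO replicate 2 or trametinib replicate 1, 2 or 3 (highest adjusted p = 0.0901). In cholesterol synthesis, 1 of 24 tested members rose and 1 fell, against 2.30% and 2.87% of all tested genes. TM7SF2, a sterol reductase, rose (0.79 ± 0.20) and SREBF1, a regulator of lipid synthesis, fell (-0.84 ± 0.24). Both calls were lost without any 1 of the 6 libraries (highest adjusted p = 0.102 and 0.188).

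Of the E2F targets of DNA replication, 1 of 54 tested members rose and 1 fell, against 2.30% and 2.87% of all tested genes, with a median of 0.10. The rise was thymidylate synthase TYMS (0.32 ± 0.08) and the fall cyclin E1, CCNE1 (-0.49 ± 0.13), calls lost without DMSO replicate 1 or 2 or trametinib replicate 1, 2 or 3 (highest adjusted p = 0.167) and without DMSO replicate 1 or 3 or trametinib replicate 1, 2 or 3 (highest adjusted p = 0.142). Among mitosis genes, 1 of 48 tested members rose and 0 fell, with a median of -0.04. The rise was FOXM1, a transcription factor that drives mitotic genes, from 23.5, 22.1 and 22.3 to 37.2, 35.5 and 37.4 (0.69 ± 0.15). Of the D cyclins, their kinases and the kinase inhibitors, 1 of 13 tested members rose and 0 fell: the inhibitor CDKN2C rose (0.36 ± 0.09), a call lost without DMSO replicate 1 or 3 or trametinib replicate 1 or 3 (highest adjusted p = 0.0956).

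Of p53 targets, 1 of 28 tested members rose and 2 fell, against 2.30% and 2.87% of all tested genes. TP53I3 rose (0.57 ± 0.15), and the kinase gene PLK2 (-0.56 ± 0.13) and the stress gene GADD45A (-0.41 ± 0.11) fell. The calls of TP53I3 and GADD45A were lost without any 1 of the 6 libraries (highest adjusted p = 0.150 and 0.119), and that of PLK2 without DMSO replicate 1 or 3 or trametinib replicate 1 or 3 (highest adjusted p = 0.0815). Of the BCL2 family, 1 of 14 tested members rose and 1 fell: BMF, a cell death promoter, rose (0.73 ± 0.20), a call lost without any 1 of the 6 libraries (highest adjusted p = 0.165), and BNIP3 fell. YAP1 stood at 24.9, 24.2 and 27.7 in DMSO and 22.7, 24.5 and 22.7 with trametinib (-0.13 ± 0.23, adjusted p = 0.837). Of the YAP/TAZ-TEAD targets, 2 of 22 tested members rose and 1 fell. The kinase gene NUAK2 (0.80 ± 0.18) and the RhoGAP gene DLC1 (8.78, 7.52 and 8.85 to 13.9, 14.6 and 14.6) rose, and MYOF, a membrane repair protein, fell (-0.79 ± 0.22). The calls of NUAK2 and MYOF were lost without DMSO replicate 1 or 3 or trametinib replicate 3 (highest adjusted p = 0.0571) and without DMSO replicate 1 or 3 or trametinib replicate 1, 2 or 3 (highest adjusted p = 0.185). Of MHC class I and interferon genes, 1 of 21 tested members rose and 0 fell, IRF1 (0.71 ± 0.18), a call lost without DMSO replicate 1 or 2 or trametinib replicate 1, 2 or 3 (highest adjusted p = 0.132). For lysosome and autophagy genes, 0 of 33 tested members rose and 0 fell by limma, with 7 at an unadjusted p under 0.05. The mitochondrially encoded genes had a median of 0.17, and 0 of 13 tested members rose and 0 fell by limma, with 1 at an unadjusted p under 0.05.

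**Figure D4:**
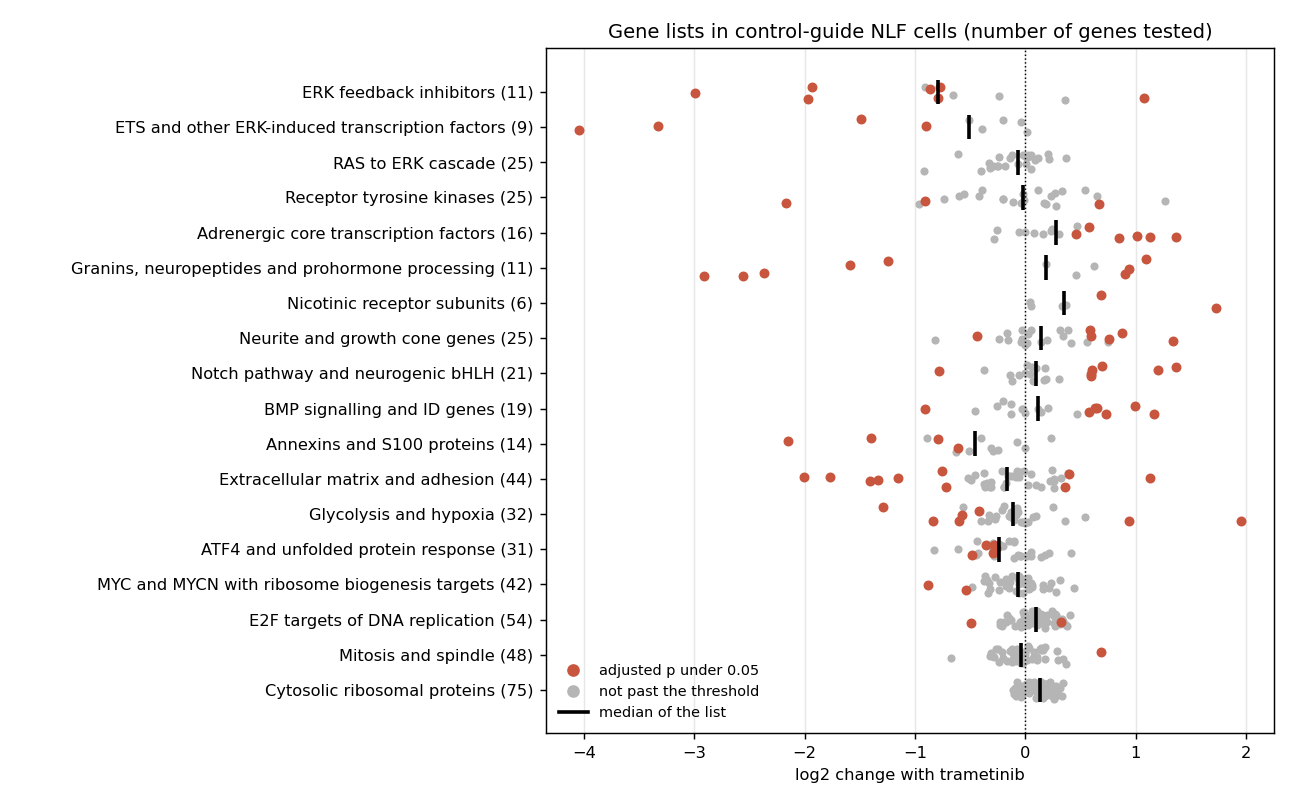
The log2 change with trametinib in sgCON of each tested member of 18 gene lists, with the number tested in parentheses, called genes in red and the list's median as a black bar. The called falls farthest from 0 are ETV4, ETV5, DUSP6, NPY and SCG2, while the medians of the DNA replication, mitosis and ribosomal protein genes lie at 0.10, -0.04 and 0.13.

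Several of the largest changes belonged to none of these lists. The largest rise among called protein-coding genes with a symbol was that of AQP1, a water channel. It stood at 2.14, 1.51 and 1.29 in DMSO and 10.005, 9.47 and 11.8 with trametinib (2.36 ± 0.20). SHD, an SH2 domain adaptor, rose from 16.1, 14.3 and 11.3 to 66.1, 60.8 and 62.5, and RHOB, a small GTPase of stress responses, from 9.98, 9.89 and 9.01 to 32.3, 30.5 and 37.4. For these genes every trametinib library was above every DMSO library. C11orf96 (1.85 ± 0.15), KCTD16, a subunit of GABA-B receptors (1.79 ± 0.25), the proteoglycan SPOCK3 (1.79 ± 0.30), the adhesion molecule CADM2 (1.77 ± 0.28) and the lipid transporter ABCA12 (1.73 ± 0.29) rose too. MFAP4 (1.68), EML5 (1.64), FNDC5 (1.60), ADAMTSL1 (1.53) and the muscarinic receptor CHRM2 (1.52) complete the 15 largest log2 rises among those protein-coding genes.

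Among falls outside the lists, PRSS12, a neuronal serine protease, stood at 60.97, 65.7 and 62.7 in DMSO and 10.7, 12.1 and 9.84 with trametinib. It had the smallest adjusted p of all genes (-2.49 ± 0.09, adjusted p = 7.80e-12). CHODL, a C-type lectin of neurons, fell from 56.4, 58.4 and 50.2 to 6.73, 7.12 and 7.44 (-2.87 ± 0.17), and CD36, a fatty acid and thrombospondin receptor, from 19.7, 18.4 and 24.1 to 2.81, 2.94 and 4.63 (-2.45 ± 0.22). DOCK2, a RAC activator (-2.46 ± 0.31), PLCL1 (-2.45 ± 0.22), the protease inhibitor-like PI15 (58.9, 58.3 and 57.8 to 10.01, 11.2 and 12.1) and the matrix protein ECM1 (-2.31 ± 0.25) also fell. Of the called genes with the highest levels, the chromatin protein HMGN2 rose from 518, 549 and 521 to 831, 819 and 847, and C12orf57 (0.74 ± 0.16), the myosin light chain MYL6 (0.59 ± 0.16), the cold-induced RNA-binding protein RBM3 (0.35 ± 0.09) and NREP (0.39 ± 0.07) rose. The cell cycle kinase subunit CKS2 fell from 404, 424 and 381 to 264, 274 and 298. The peroxiredoxin PRDX1 (-0.39 ± 0.10), thioredoxin reductase TXNRD1 (-0.47 ± 0.13), LAPTM4B (-0.35 ± 0.07) and transketolase TKT (-0.77 ± 0.19) fell. The calls of MYL6, PRDX1 and TXNRD1 were lost without any 1 of the 6 libraries (highest adjusted p = 0.165, 0.110 and 0.145), that of RBM3 without DMSO replicate 1 or 3 or trametinib replicate 1, 2 or 3 (highest adjusted p = 0.120) and that of TKT without DMSO replicate 1, 2 or 3 or trametinib replicate 1 or 2 (highest adjusted p = 0.0835).

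Other lists held more called members with the spread from the 6 libraries alone, by limma at the same threshold. That fit called 2383 of all 16194 genes, of which 1016 rose and 1367 fell, and no list was tested against those shares. Of E2F targets 8 then rose and 3 fell, and of mitosis genes 6 rose and 3 fell. Of ribosomal protein genes 19 rose and 0 fell. Of matrix genes 4 rose and 14 fell, of ATF4 targets 0 rose and 13 fell, and of glycolysis genes 2 rose and 11 fell. Of neurite and growth cone genes 9 rose and 3 fell, of adrenergic genes 8 rose and 2 fell, of annexins 0 rose and 7 fell, and of p53 targets 4 rose and 6 fell.

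The response of sgCON was then set against those of the YAP1 knockout lines by testing the difference between responses. Of the 837 genes, 780 had a change of the same sign in YAPKO1 and 740 in YAPKO2. Fewer were called in the same direction, 426 in YAPKO1 and 458 in YAPKO2. How many of all tested genes kept their sign was not counted. The response differed in 40 genes for YAPKO1 (0.247% of those tested) and in 782 for YAPKO2 (4.83%), of which 21 and 144 are among the 837. Both differences use the same sgCON libraries. The counts ran from 12 to 40 without any 1 of the 12 libraries for YAPKO1, and for YAPKO2 from 512 to 1166, the latter without YAPKO2 trametinib replicate 3. The GC trend of the YAPKO2 libraries with trametinib ran from -0.25 to 1.34, and after the GC correction the counts were 144 and 1577.

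The level before treatment limits some of these differences. Of the 40 genes for YAPKO1, 14 had a mean under 1 FPKM in DMSO in at least 1 of the lines compared, as had 97 of the 782 for YAPKO2, and 8 and 37 of those are among the 837. On the log2(FPKM + 0.5) scale a gene near 0 before treatment cannot show a fall of the size seen in sgCON. CPA4, a carboxypeptidase gene, fell in sgCON (1.53, 0.995 and 2.47 to 0.239, 0 and 0.0288, -1.84 ± 0.23) and averaged 0.0101 in YAPKO1 and 0 in YAPKO2 in DMSO. The organic anion transporter SLCO2B1 fell in sgCON (-2.08 ± 0.22) and averaged 0.198 and 0 in the knockout lines in DMSO. XIRP2 also fell in sgCON (-1.99 ± 0.18), with DMSO means of 0.229 and 0.106 in the knockout lines. Nothing is read from the called differences of these 3 genes.

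In both knockout lines 27 genes had a response that differed from that of sgCON in the same direction, CPA4, SLCO2B1 and XIRP2 among them. DCN rose in sgCON and fell in both knockout lines, by log2 changes of -1.42 ± 0.16 in YAPKO1 (mean 12.5 to 4.48) and -0.75 ± 0.16 in YAPKO2 (mean 209 to 124). METTL27 fell in sgCON (-0.86 ± 0.17) and rose from low levels in both others (0.68 ± 0.17, mean 0.718 to 1.44, and 0.60 ± 0.17, mean 1.02 to 1.79). SCUBE1 was 0.26 ± 0.26 in sgCON, where its mean in DMSO was under 1 FPKM, and 2.20 ± 0.26 and 2.14 ± 0.26 in the knockout lines. The differences of METTL27 in YAPKO1 and of SCUBE1 in both lines thus carry the limit given above, and nothing is read from them. SHISA3 (0.22 ± 0.19 against -1.59 ± 0.19 and -0.91 ± 0.19), CBLN2 (0.43 ± 0.12 against -0.53 ± 0.12 and -0.74 ± 0.12) and the mitotic kinase AURKA (-0.08 ± 0.08 against -0.64 ± 0.08 and -1.06 ± 0.08) had lower responses in the knockout lines. PRKCA, a protein kinase C gene, fell in all 3 lines, and by less in sgCON (-0.49 ± 0.07) than in YAPKO1 (-0.99 ± 0.07) and YAPKO2 (-1.57 ± 0.07). The call of CBLN2 in sgCON was lost without DMSO replicate 1, 2 or 3 or trametinib replicate 2 or 3 (highest adjusted p = 0.240).

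SCG2 was lower in YAPKO2 before treatment and did not pass the test there. With trametinib the mean FPKM of SCG2 fell from 137 to 22.9 in sgCON. In YAPKO1 this mean fell from 90.2 to 27.1, whereas in YAPKO2 the DMSO and trametinib means were 16.9 and 14.96 (log2 change -0.23 ± 0.17). The difference between YAPKO2 and sgCON passed the test (adjusted p = 4.96e-05). PAM fell in both, from 144 to 60.6 in sgCON and from 61.9 to 29.5 in YAPKO2, and its responses were not called different (adjusted p = 0.476). SYT4, VGF and NPY were at 0.558, 0.763 and 1.41 in YAPKO2 in DMSO, so their called differences (adjusted p = 9.89e-05, 0.000165 and 0.00169) carry the same limit. In YAPKO1 SYT4, SCG2, VGF and NPY changed by -3.19 ± 0.28, -1.71 ± 0.17, -1.27 ± 0.21 and -2.29 ± 0.20, and none of the differences from sgCON passed the test. GAP43 rose in sgCON and YAPKO1 (1.13 ± 0.12) and fell in YAPKO2 from 142 to 57.6 (-1.30 ± 0.12, adjusted p of the difference = 2.24e-07). ETV4 (-5.34 ± 0.19) and ETV5 (-4.57 ± 0.24) fell further in YAPKO2, whereas SPRY2 (-1.34 ± 0.11) fell by less. The E2F target list had a median of 0.10 in sgCON, -0.20 in YAPKO1 and -0.84 in YAPKO2, and 38 of its 54 tested genes had a lower response in YAPKO2 than in sgCON, against 2.99% of all genes. Of the 48 mitosis genes, 23 had a lower response there.

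**Figure D5:**
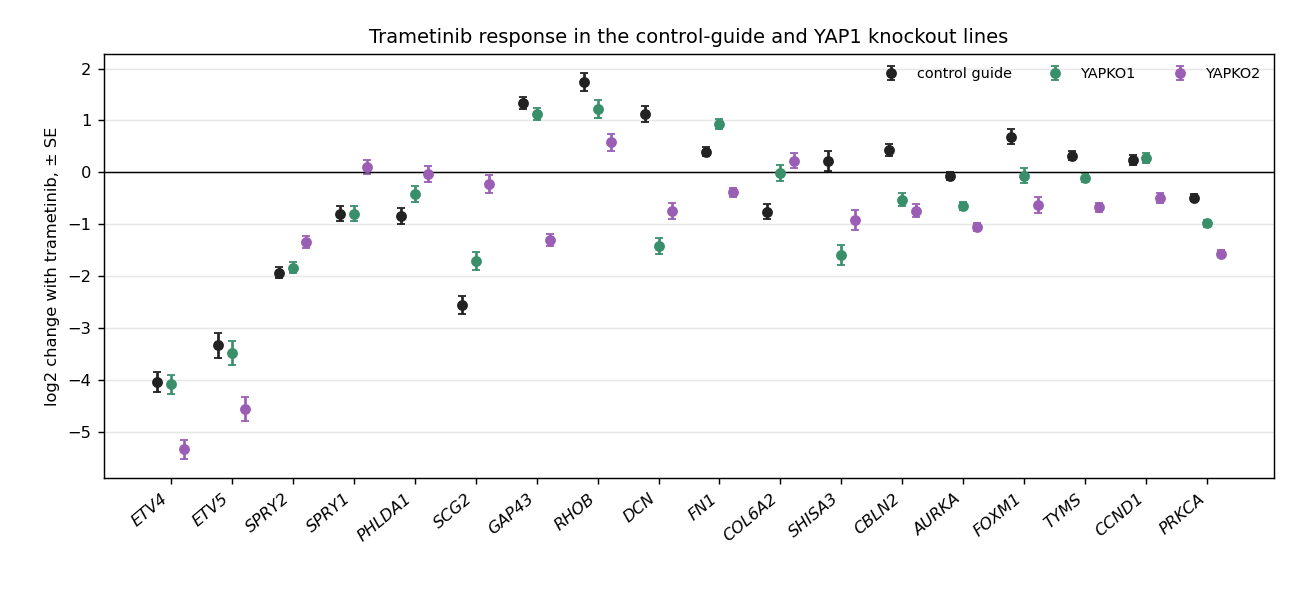
The log2 change with trametinib, with bars of 1 SE, in sgCON (black), YAPKO1 (green) and YAPKO2 (purple) for genes named in the text, picked after their values were seen, whose response differed from that of sgCON in at least 1 knockout line and whose mean in DMSO was above 2 FPKM in all 3 lines. ETV4 and ETV5 fall in all 3 lines, GAP43 rises in sgCON and YAPKO1 and falls in YAPKO2, and DCN rises in sgCON and falls in both knockout lines.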

How the data were processed

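The authors deposited FPKM values for 57820 genes in 21 libraries, made with STAR 2.4.2 and RSEM 1.3.0 on hg19 per the submitters' processing notes, from ribosome-depleted stranded total RNA per the labels' protocols. Whether strand was used in the quantification is not given in the sources used here, so overlapping and antisense genes may share reads. A further deposited FPKM table, calibrated by the authors, equals the first times 1 factor per library (0.927 to 1.07) and supplied the gene symbols. FPKM keep no read counts, so the depth per library is unknown and no count test was run.

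The values were scaled between libraries by median ratios. Low genes were left out by asking for 3 or more libraries with an FPKM of 1 or more, which left 16194, of which 12192 are protein-coding by GENCODE v29, where 52338 of the gene IDs found a type. limma 3.58.1 in R 4.3.3 was fitted to log2(FPKM + 0.5) with 1 mean per group over all 21 libraries (14 residual degrees of freedom, trended prior), with two-sided p-values and Benjamini-Hochberg adjustment over all genes. Responses of the lines were compared by the difference between contrasts. The code was tested on simulated data.

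The members were taken by their labels, and the gene lists were chosen with earlier results of these data known. Named genes are the 15 largest called rises and falls among protein-coding genes without overlap between groups, the 5 called genes of highest level in each direction, up to 6 members of each described list by size of change, a fixed set (DUSP6, SPRY4, ETV4, ETV5, ETV1, CCND1, MYCN, YAP1, TH, DBH and RET), and up to 5 genes in each direction that differed in both knockout lines. DUSP4, SPRY1, STMN3, BASP1, UNC5B, UNC5C, SMAD7, MAML3, COL6A2, FBN1, HK2, GARS, PDIA6, MTHFD2, ATF4, TYMS, the lineage and cell type markers and the non-coding genes fall outside it and were chosen after their values were seen. Promoter windows came from RefSeq (GRCh38.p14), matched by symbol, with an entry for 10651 of the 16194 genes. Other pseudocounts, filters, scalings, a GC correction, a replicate block, fits to fewer libraries and leaving out each library were tried. Results for some genes are not reported here.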

Additional observations from a re-analysis of the deposited data

Results flagged for a closer look

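The flags in this section mark genes named above whose response to trametinib in a knockout line differed from that in the control-guide line, by limma's test of the difference itself at an adjusted p under 0.05. Values are the log2 response of the knockout line minus that of sgCON, all of them against the same 6 sgCON libraries, so the sets for YAPKO1 and YAPKO2 are not independent.

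For YAPKO1 12 named genes were flagged. The response was higher in YAPKO1 by 1.01 for BAMBI and 0.63 for PRSS12. It was lower there, with -2.54 for DCN, -1.82 for SHISA3, -0.96 for CBLN2, -0.57 for AURKA and -0.50 for PRKCA.

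For YAPKO2 51 named genes were flagged. Among ERK-induced and cell cycle genes, the response was higher in YAPKO2 by 0.59 for SPRY2, 0.90 for SPRY1 and 0.81 for PHLDA1, and lower with -1.30 for ETV4, -1.23 for ETV5, -0.73 for CCND1, -1.32 for FOXM1, -1.0003 for TYMS, -0.75 for CKS2 and -0.99 for AURKA. Among secretory, catecholamine and neuronal genes, the response was higher in YAPKO2 by 1.40 for MAOB, 1.70 for NPY and 2.33 for SCG2, and lower with -2.63 for GAP43 and -1.17 for CBLN2. Among matrix, adhesion and annexin genes, the response was higher in YAPKO2 by 1.80 for POSTN and 0.98 for COL6A2, and lower with -1.88 for DCN and -0.78 for FN1. Among the remaining genes it was higher by 0.60 for PRSS12, 0.36 for NREP and 1.46 for METTL27, and lower with -0.97 for FGFR2, -0.96 for HK2, -0.47 for GARS, -0.55 for MTHFD2, -1.03 for C11orf96, -1.54 for KCTD16, -1.16 for RHOB, -0.91 for HMGN2, -0.82 for TXNRD1, -1.14 for SHISA3 and -1.08 for PRKCA. The next genes were flagged with a mean under 1 FPKM in DMSO in sgCON or in the knockout line, so that on the log2(FPKM + 0.5) scale the starting level limits the response, and nothing is read from their difference. Each is given with its difference and the means in sgCON and in the knockout line. For YAPKO1 they were CPA4 (1.81, DMSO means 1.66 and 0.0101), METTL27 (1.54, DMSO means 2.23 and 0.718), SCUBE1 (1.94, DMSO means 0.756 and 1.07), SLCO2B1 (1.69, DMSO means 3.74 and 0.198) and XIRP2 (1.48, DMSO means 1.70 and 0.229). For YAPKO2 they were ADM (1.92, DMSO means 0.142 and 0.465), ANXA1 (1.99, DMSO means 42.5 and 0.119), CD36 (2.37, DMSO means 20.8 and 0.182), CHGA (2.89, DMSO means 0.0492 and 1.09), CPA4 (1.84, DMSO means 1.66 and 0), DBH (1.55, DMSO means 0.0264 and 0.563), DOCK2 (2.45, DMSO means 3.72 and 0.216), ECM1 (1.46, DMSO means 4.08 and 0.729), IER3 (1.20, DMSO means 2.94 and 0.665), NTS (1.82, DMSO means 5.34 and 0.604), PLCL1 (1.93, DMSO means 6.08 and 0.396), SCUBE1 (1.88, DMSO means 0.756 and 3.54), SEMA3C (1.09, DMSO means 2.47 and 0.0341), SLCO2B1 (2.11, DMSO means 3.74 and 0), SYT4 (3.35, DMSO means 14.96 and 0.558), TGFBI (1.33, DMSO means 1.55 and 0.283), VGF (2.33, DMSO means 5.16 and 0.763) and XIRP2 (1.74, DMSO means 1.70 and 0.106). DBH went from 0.0264 to 0.368 in sgCON and from 0.563 to 4.73 in YAPKO2, so without the pseudocount its ratio was the larger one in sgCON. POSTN, NPY and METTL27 lay just above that level in YAPKO2, with DMSO means of 1.25, 1.41 and 1.02. The GC trends of the YAPKO2 libraries spanned more than those of sgCON, as given above, and 1577 genes differed for YAPKO2 after the GC correction.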

How the results depend on the processing

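The count of changed genes in sgCON, 837, stayed within 1.5 times that value under 8 of the 12 settings tried beside leaving out libraries. It was 2383 with the spread from the 6 libraries alone, 264 with a 2-fold minimum, 1512 with the GC correction and 1371 with the GC correction and the replicate block. Without 1 library it ran from 480 to 548, and each of the 6 libraries moved it by over 1.5 times, where fewer samples enter the fit. For YAPKO1 the count of differences, 40, was 24 with a pseudocount of 0.1, 8 with only the groups compared, 23 with the calibrated table, 144 with the GC correction, 100 with the GC correction and the replicate block, and 12 to 40 without 1 library; it fell by over 1.5 times without any of the 12 but YAPKO1 DMSO replicate 3 and YAPKO1 trametinib replicate 1. For YAPKO2 the count, 782, was 450 with only the groups compared, 350 with a 2-fold minimum, 1577 with the GC correction, 1445 with the GC correction and the replicate block, and 512 to 1166 without 1 library. No alternative reversed the direction of a named gene's change. Deviations of sgCON libraries with the same replicate number correlated at -0.00301, 0.0141 and 0.0235, and not every library correlated best with its own number. Values so near 0 over all genes cannot decide whether replicate numbers pair the samples. Replicate 2 had the lowest GC trend in both sgCON groups (-0.48 in DMSO and -0.28 with trametinib). The main fit used no pairing. With the replicate block 693 genes were called in sgCON, 18 for YAPKO1 and 582 for YAPKO2, and 16 of the 152 named coding genes lost their call. With only the groups compared and the block, an alternative chosen after seeing the data, 840 genes were called and 43 named genes lost theirs. The named genes that lost their call under at least 1 setting, apart from the 2-fold minimum, the added setting and left-out libraries, were ADM, ATF4, BMF, BMPR1B, CBLN2, CCNE1, CHGA, ELK3, EPHA5, FN1, GADD45A, GARS, HK1, ID3, IRF1, LAPTM4B, MAP6, MTHFD2, MXI1, MYL6, MYOF, NUAK2, PCSK1N, PDIA6, PLXNA2, PRDX1, SREBF1, STMN3, TM7SF2, TP53I3 and TXNRD1. Of the same 152 genes, 2 lost their call with the GC correction and 3 gained one, while leaving out 1 library cost between 36 and 45 calls. With 3 libraries a group and no read counts, the precision of genes near the pseudocount is limited, and the cause of the other shifts was not tested.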

Other observations

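Some non-coding RNAs, picked here after their values were seen, changed too. Over all tested genes 2.30% rose and 2.87% fell. Of 119 tested small nucleolar RNA genes, which guide the modification of ribosomal RNA, 1 rose and 10 fell, with a median log2 change of -0.92, and of 44 small nuclear RNA genes of the splicing machinery 0 rose and 3 fell, with a median of -1.27. SNORA52 stood at 841, 1942 and 1168 in DMSO and 301, 568 and 416 with trametinib, a log2 change of -1.58 ± 0.29 (adjusted p = 0.00254 by limma). SNORA22 stood at 394, 291 and 520.4 in DMSO and 96.1, 166 and 185 with trametinib (-1.44 ± 0.32). Short non-coding genes took 25.96% to 31.7% of the FPKM in DMSO and 21.7% to 27.0% with trametinib, and the part of that share in these falls was not tested. SNHG12, a host gene of small nucleolar RNAs, stood at 286, 484 and 274 in DMSO and 175, 90.2 and 41.3 with trametinib (-1.95 ± 0.48), and its reads may be shared with the small RNAs in its introns. It was 1 of 3 host genes of that series to fall among 19 tested, of which 0 rose.

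Among long non-coding RNAs, 17 of 601 tested lincRNA genes rose and 17 fell, and of 1017 antisense genes 25 rose and 8 fell. The shares over all tested genes were 2.30% up and 2.87% down, so these counts are not read as a response of either class. DNM3OS, a transcript that carries microRNAs and lies antisense to DNM3, fell from 25.8, 25.6 and 31.5 to 8.56, 8.90 and 8.10 (-1.63 ± 0.22). The imprinted transcript H19 rose from 4.78, 7.06 and 6.09 to 13.5, 11.4 and 16.9 (1.15 ± 0.25), and SOCS2-AS1 rose from 0.920, 1.45 and 0.339 to 3.16, 3.08 and 2.07 (1.29 ± 0.24). With the spread from the 6 libraries alone the calls of SNHG12 (adjusted p = 0.0607) and SOCS2-AS1 (adjusted p = 0.0548) by limma were lost. For each of these genes the 3 trametinib values lay on one side of the 3 DMSO values. MYCN, at 98.6, 97.8 and 92.2 in DMSO and 55.1, 49.9 and 51.2 with trametinib in sgCON, had a mean of 32.0 in the parental line in DMSO, a difference between lines that was not tested.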
